A study of Mus musculus with 4 samples.

Results

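TNF receptor superfamily genes known from regulatory T cells are described here in mouse splenic regulatory T cells, with and without a floxed allele of the Polycomb gene Bmi1. The set was named by gene symbol with no filter on measured values, though earlier results of these data were known. It holds Tnfrsf4, Tnfrsf8, Tnfrsf9, Tnfrsf14, Tnfrsf18, Tnfrsf25, Tnfrsf1a, Tnfrsf1b, Cd27 and Fas. Of these 10 genes, 9 had a transcript cluster (the array's unit for 1 transcribed locus) annotated to them alone, among 30140 genes and 65528 clusters on the array. Cd27 was annotated only on a cluster that also carries the microRNA gene Mir8113, so that cluster is given below as a shared one and enters no count. Fas had 2 clusters annotated to it alone, and the brighter is reported.

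Expression was measured on 4 arrays, 2 in each group. All mice were 7 to 8 weeks old and carried the Foxp3EGFP-cre transgene (B6-Tg(Foxp3EGFP-cre)1cJbs/J), which makes a green fluorescent Cre fusion under Foxp3 control. In the group labelled WT (replicates 1 and 3) the transgene was on C57BL/6. In the group labelled KO (replicates 1 and 2) it was combined with BMI1-flox on C57BL/6. That design is meant to limit deletion to cells in which the Foxp3 promoter is active. From spleen CD4 cells, 15000 to 40000 fluorescent cells per sample were sorted. The sources disagree on the state of the cells: by title and treatment field they were untreated, but the series text has them BMI1-/- and activated for 24 h with CD3 and CD28 antibodies. Separate animals are not stated, and p-values therefore cover no more than the variation among these 4 samples, which may be technical.

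Receptors of this family are switched on by trimeric ligands of the TNF family. Most of those listed here bind TRAF adaptors through their tails and feed the NF-kB and MAP kinase pathways, while Tnfrsf1a, Tnfrsf25 and Fas also carry a death domain that can engage caspases. Regulatory T cells are known for OX40 (Tnfrsf4), GITR (Tnfrsf18) and TNFR2 (Tnfrsf1b), which support their survival and expansion, and for the activation-linked receptors CD137 (Tnfrsf9) and CD30 (Tnfrsf8).

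Bmi1 itself read 8.98 and 8.98 in the arrays labelled WT and 9.58 and 9.91 in those labelled KO, a difference of 0.77 (SE 0.16, limma adjusted p 0.298) on the log2 scale, opposite in direction to the label. Whether its cluster covers the floxed part is not given in the sources used here, so every direction below rests on the labels alone. The sort used CD4 and Foxp3-driven fluorescence. Cd4 read 12.55 and 12.80 (WT) and 12.96 and 12.92 (KO). The cluster that Foxp3 shares with 2 other genes lay between 13.20 and 13.50 in all 4 arrays. Il2ra (CD25), which is not named in the sort, lay between 14.97 and 15.01. Of the 9 regulatory T cell markers on a cluster of their own, 5 separated the groups, against 38.5% of all genes. The share was 45.2% among genes at or above the median gene, where all 9 lay. The widest differences were those of Lrrc32 and Gpr83, in opposite directions. Lrrc32 read 12.05 and 12.28 (WT) and 11.18 and 10.48 (KO). Gpr83 read 11.88 and 11.07 (WT) and 12.51 and 12.74 (KO). Of the B cell markers 7 of 9, of the myeloid markers 7 of 9 and of the dendritic cell markers 5 of 6 lay below the median gene (5.04) in every array. Of the NK cell markers 2 of 5 did so, and Eomes read 6.80 and 6.91 (WT) and 7.37 and 8.49 (KO). Of the CD8 T cell markers, Cd8a lay between 4.07 and 4.23, but Cd8b1 read 9.74 and 10.78 (WT) and 10.71 and 11.26 (KO). Over all genes, 15407 of 30140 were higher in the arrays labelled KO. Markers of CD4 T cells were so for 6 of 7 genes, with list means of 13.85 and 13.94 (WT) and 14.19 and 14.10 (KO). Plasma cell markers were so for 5 of 6, with list means of 6.19 and 6.30 (WT) and 6.62 and 6.51 (KO). Of these 6, 3 lay below the median gene in every array, and the differences ran from -0.03 (Sdc1) to 1.03 (Jchain). The part of any of these in the values below was not tested. In bulk samples, fewer cells of a type and less RNA per cell cannot be told apart.

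Most genes of the set share a chromosome. In RefSeq (assembly GRCm38.p6), 7 of the 10 are on chromosome 4, 2 (Tnfrsf1a and Cd27) on chromosome 6 and 1 (Fas) on chromosome 19. Tnfrsf4 and Tnfrsf18 are direct neighbours among protein-coding genes, and so are Tnfrsf1b and Tnfrsf8. Tnf, the ligand of Tnfrsf1a and Tnfrsf1b, lies between Ltb and Lta on chromosome 17. The 250 bases before the start site are shown for Tnfrsf1b, the receptor with the smallest p in this comparison, for its neighbour Tnfrsf8, whose groups overlapped, and for Tnf, the ligand with the widest difference. They come from RefSeq (GRCm38.p6) and lie at chr4:145246871-145247120 (minus strand), chr4:145315165-145315414 (minus strand) and chr17:35202008-35202257 (minus strand). Capitals mark letters that match the NF-kB consensus on either strand.
Tnfrsf1b: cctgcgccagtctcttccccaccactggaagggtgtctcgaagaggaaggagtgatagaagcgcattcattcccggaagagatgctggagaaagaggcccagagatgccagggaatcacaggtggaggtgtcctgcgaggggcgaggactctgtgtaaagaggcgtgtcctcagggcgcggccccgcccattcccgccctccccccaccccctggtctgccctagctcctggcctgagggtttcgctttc
Tnfrsf8: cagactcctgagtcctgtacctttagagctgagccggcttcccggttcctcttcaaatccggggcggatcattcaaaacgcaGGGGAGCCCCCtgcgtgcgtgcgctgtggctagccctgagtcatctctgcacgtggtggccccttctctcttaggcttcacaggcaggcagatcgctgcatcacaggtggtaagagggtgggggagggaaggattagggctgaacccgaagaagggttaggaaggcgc
Tnf: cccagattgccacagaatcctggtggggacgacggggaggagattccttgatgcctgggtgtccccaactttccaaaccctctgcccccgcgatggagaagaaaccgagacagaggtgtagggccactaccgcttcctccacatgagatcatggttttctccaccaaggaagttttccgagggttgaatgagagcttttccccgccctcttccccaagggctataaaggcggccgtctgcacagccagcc

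All 10 genes matched the RefSeq promoter table, with 12 start windows between them, since Tnfrsf9 and Tnfrsf25 have 2 each. The NF-kB consensus occurred in 3 of the 12 windows and in 7.25% of 32851 windows of the same length in the table. The matches were GGGGAGCCCCC 168 to 158 bases before the start of Tnfrsf8, GGGGATTTCCC 43 to 33 bases before the second start of Tnfrsf9, and GGGGGCCTCC 28 to 19 bases before the second start of Tnfrsf25. The first and the second of these each hold 2 overlapping matches. A GC box (GGGCGG, either strand) occurred in 4 of the 12 windows against 32.7% of all windows, and a TATA box (TATAAA, either strand) in 0 of 12 against 12.4%. CpG content differed within the set. The Tnfrsf1b and Tnfrsf8 windows each held 12 CG pairs and the second Tnfrsf25 window 14, against 2 each for Tnfrsf14 and Tnfrsf18, with a median of 6 over all windows. These are letters in a window and no evidence of binding.

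No receptor gene was called different between the genotypes. None of the 9 passed a Benjamini-Hochberg adjusted p of 0.05 over all genes (limma, adjusted p from 0.437 for Tnfrsf1b to 0.976 for Tnfrsf9), where 0.00664% of all genes did, namely Snord14e and Igf2bp3. At an unadjusted limma p under 0.05 stood 1 of the 9, Tnfrsf1b, against 10.1% of all genes. It was lower in the arrays labelled KO, as were 3.76% of all genes at that p, and 0 of 9 were higher, against 6.36%. The 2 groups' arrays were fully separated for 2 of 9 against 38.5% of all genes: Tnfrsf4 with KO higher (21.0% of all genes) and Tnfrsf1b with KO lower (17.5%). Among genes at or above the median gene, where all 9 lay, 14.4% had such a p and 45.2% were separated. Both of the receptors' shares lay near or below the background. In sign, 4 of the 9 differences were positive and 5 negative. Their median was -0.02, beside 0.005 over all genes and 0.045 among genes at or above the median gene. In size, 8 of 9 differences were under 0.25. The median size was 0.095, beside 0.105 over all genes and 0.145 among genes at or above the median gene. With only 2 arrays a group, a missed threshold does not show equal levels, and the 95% intervals give what these arrays allow. They lay within a 2-fold change in either direction for all 9, and within 1.5-fold for 6 of 9, the exceptions being Tnfrsf14, Tnfrsf1b and Fas.

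**Figure D1:**
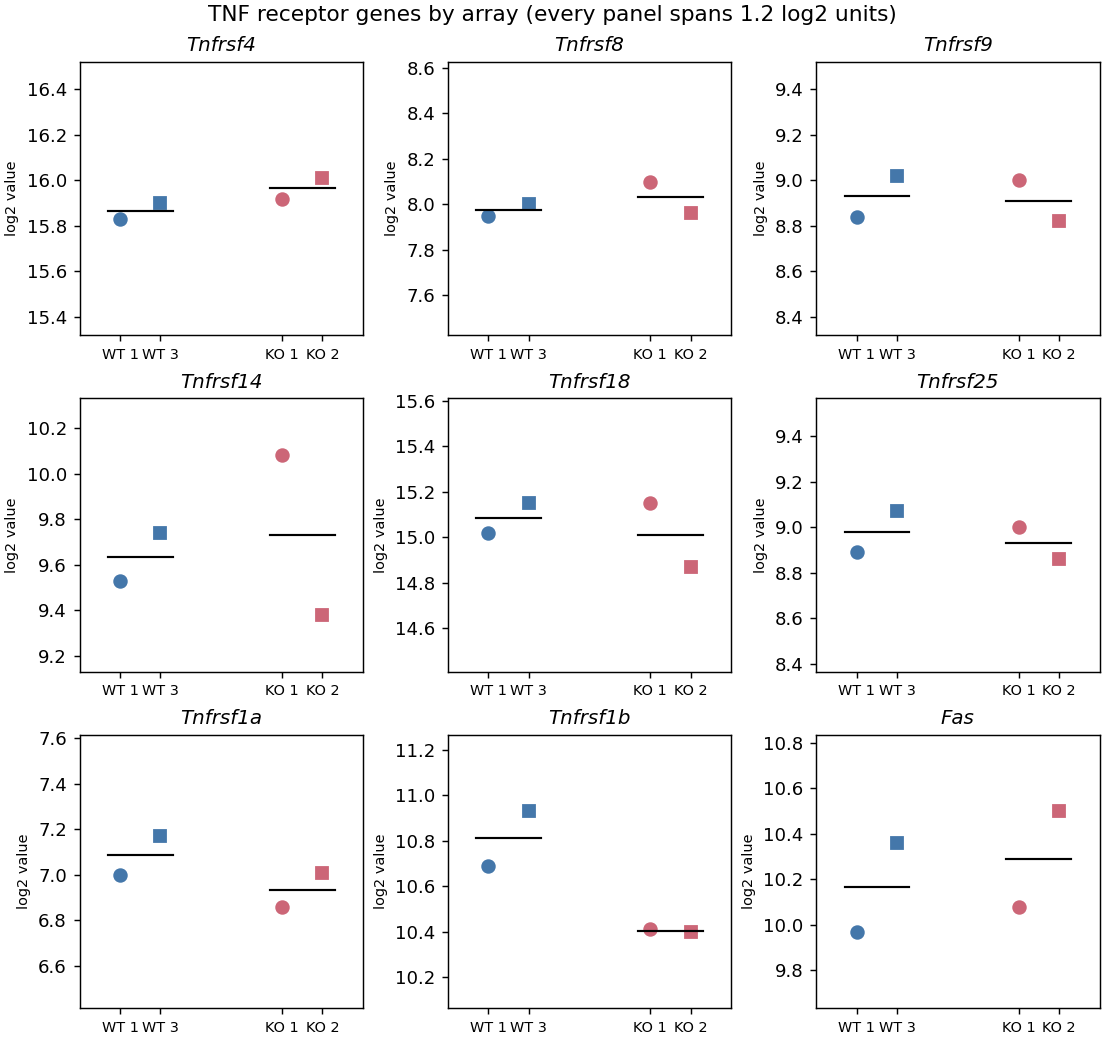
Log2 value (vertical axis) of the 9 receptor genes in each of the 4 arrays (horizontal axis), with WT in blue, KO in red and group means as black lines. Every panel spans 1.2 log2 units, so distances compare across panels while heights do not. The 2 KO points of Tnfrsf1b (10.41 and 10.40) lie below both WT points, and those of Tnfrsf14 (10.08 and 9.38) lie on either side of them.

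Tnfrsf1b encodes TNFR2, the TRAF-binding receptor for membrane-bound TNF. It read 10.69 and 10.93 in WT replicates 1 and 3 and 10.41 and 10.40 in KO replicates 1 and 2. Both arrays labelled KO were below both labelled WT, and the gap between the groups exceeded the gap between replicates. The means were 10.81 ± 0.17 and 10.41 ± 0.01 (SD, n = 2 each), a ratio of 0.755 with a 95% interval of 0.591 to 0.965. The unadjusted limma p was 0.0318, and after adjustment over all genes it was 0.437, so the difference was not called. The exact permutation test gave a two-sided p of 0.333, the smallest that 2 arrays against 2 can give. Tnfrsf8, the coding neighbour of Tnfrsf1b and the gene for CD30, read 7.95 and 8.00 (WT) and 8.10 and 7.96 (KO), with the groups overlapping and a difference of 0.055 (SE 0.13).

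OX40 and GITR, the co-stimulatory receptors of the other neighbouring pair, had the smallest standard errors in the set. Tnfrsf4 (OX40) read 15.83 and 15.90 in the arrays labelled WT and 15.92 and 16.01 in those labelled KO. Its groups did not overlap, but they differed by 0.10 (SE 0.07), 1.07-fold with an interval of 0.95 to 1.21. After a further quantile normalization that difference was 0.0125 and the groups overlapped. Tnfrsf18 (GITR) read 15.02 and 15.15 (WT) and 15.15 and 14.87 (KO), a ratio of 0.949 with an interval of 0.771 to 1.17. After quantile normalization its difference went from -0.075 to -0.198, with both arrays labelled KO then lower. KO replicate 2 was the lowest array for Tnfrsf18 and the highest for Tnfrsf4. As deposited, a change of 1.5-fold in either direction lay outside the interval of both genes.

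Tnfrsf9 (CD137), a co-stimulatory receptor induced by T cell activation, read 8.84 and 9.02 (WT) and 9.0 and 8.82 (KO). Its ratio was 0.986, with an interval of 0.763 to 1.28, and the groups overlapped. Tnfrsf14 encodes HVEM, which binds both TNF family ligands and the immunoglobulin family receptor BTLA. It read 9.53 and 9.74 (WT) and 10.08 and 9.38 (KO). The KO arrays were the highest and the lowest of the 4, and their gap of 0.70 was the widest between replicates in the set. The interval of 0.677 to 1.68 for its ratio includes a 1.5-fold higher level. The cluster annotated to both Cd27, a receptor of CD70 that supports T cell survival, and Mir8113 read 13.24 and 13.26 (WT) and 13.13 and 13.13 (KO). Both arrays labelled KO were lower by a small step, a difference of -0.12 (SE 0.10, limma adjusted p 0.797 among all clusters), and the 2 genes cannot be told apart there.

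Among the death domain receptors, none separated the groups. Tnfrsf1a, the TNFR1 gene, read 7.00 and 7.17 (WT) and 6.86 and 7.01 (KO), a ratio of 0.901 with an interval of 0.714 to 1.14. The groups overlapped by a single hundredth, with WT replicate 1 just below KO replicate 2. Tnfrsf25, the gene for DR3, read 8.89 and 9.07 (WT) and 9.0 and 8.86 (KO), a ratio of 0.966 with an interval of 0.753 to 1.24. DR3 is the receptor for TL1A (Tnfsf15), a ligand that expands regulatory T cells. Tnfrsf25 and Tnfrsf9 followed each other most closely of all pairs in the set, with a Euclidean distance of 0.04 between their 4 centred values, which is a description of 4 arrays. Tnfrsf14 and Fas were the most unlike pair, at 0.80.

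Fas, the receptor that triggers apoptosis on binding Fas ligand, had 2 clusters annotated to it alone, which varied unequally between arrays. The brighter cluster, TC1900000497.mm.1, read 9.97 and 10.36 (WT) and 10.08 and 10.50 (KO), so the arrays of the groups interleaved. Its difference was 0.125 (SE 0.21), a ratio of 1.09 with an interval of 0.747 to 1.59. The dimmer cluster, TC1700001230.mm.1, carries the same symbol and gene identifier and read 6.45 and 6.54 (WT) and 7.84 and 5.46 (KO). There the KO arrays were the highest and the lowest and lay 2.38 apart, while the WT arrays lay 0.09 apart. Its difference was 0.155 (SE 0.76, limma adjusted p 0.972 among all clusters). RefSeq places Fas on chromosome 19, as the identifier of the brighter cluster does. The identifier of the dimmer one points to chromosome 17, and whether that cluster reads Fas was not examined.

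**Figure D2:**
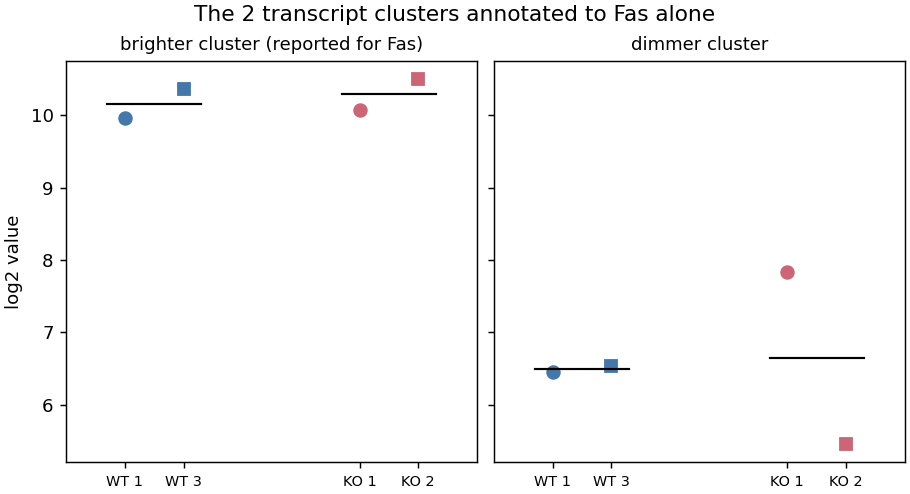
Log2 values (vertical axis, shared) of the 2 transcript clusters annotated to Fas alone, in each array, with WT in blue, KO in red and group means as black lines. The brighter cluster stays between 9.97 and 10.50, and the dimmer one runs from 5.46 (KO replicate 2) to 7.84 (KO replicate 1).

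The ligands and partners of these receptors were measured on the same arrays, 13 of 13 with a cluster of their own. None passed the adjusted threshold, and 3 of 13 had an unadjusted limma p under 0.05, against 10.1% of all genes: Tnf and Btla lower and Tnfsf4 higher in the arrays labelled KO. The arrays did not overlap for 5 of 13, near the 38.5% of all genes. The median difference was 0.075, beside 0.005 over all genes. Under each of 3 scalings (as deposited, median-centred and quantile-normalized), 9 differences were positive and 4 negative.

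Tnf, the cytokine bound by Tnfrsf1a and Tnfrsf1b, read 9.18 and 9.62 (WT) and 8.62 and 8.83 (KO). Both arrays labelled KO were lower, as for Tnfrsf1b. The means were 9.40 ± 0.31 and 8.73 ± 0.15 (SD, n = 2 each), a ratio of 0.626 with an interval of 0.444 to 0.884 (limma adjusted p 0.388). Of the genes on either side of Tnf, Lta read higher and Ltb slightly lower. Lta (lymphotoxin alpha), also a ligand of both TNF receptors, read 6.88 and 6.81 (WT) and 6.99 and 7.17 (KO), a difference of 0.235 (SE 0.13). Ltb, the partner chain that makes lymphotoxin bind another receptor, read 16.75 and 16.84 (WT) and 16.84 and 16.63 (KO), a difference of -0.06 (SE 0.09), and of -0.19 with the groups separated after quantile normalization.

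Btla, the inhibitory receptor that engages HVEM, read 11.57 and 11.55 (WT) and 11.06 and 10.98 (KO). This difference had the smallest p among receptors and ligands, with a ratio of 0.688 with an interval of 0.562 to 0.842 (limma adjusted p 0.301). B cells also express Btla. The sort for CD4 and Foxp3-driven fluorescence is meant to remove them, and their part in this value was not tested. The B cell marker list had means of 4.79 and 4.90 (WT) and 4.74 and 4.89 (KO), with 2 of its 9 genes higher and 6 lower. The other partners of HVEM overlapped between groups: Tnfsf14 (LIGHT) read 7.52 and 7.94 (WT) and 7.92 and 7.74 (KO), and Cd160 read 5.91 and 6.59 (WT) and 6.47 and 6.57 (KO).

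Tnfsf4, the OX40 ligand, read 4.60 and 4.65 (WT) and 5.05 and 4.86 (KO). Both arrays labelled KO were higher, 1.26-fold with an interval of 1.05 to 1.51 (limma adjusted p 0.415), around the level of the median gene, where the table gives no measure of background. The ligands of GITR (Tnfsf18) and CD27 (Cd70) lay below the median gene in every array, between 3.54 and 3.92 and between 3.28 and 3.54. The CD137 ligand gene Tnfsf9 did so too, between 4.24 and 4.54. Tnfsf8, the CD30 ligand, read 8.73 and 8.20 (WT) and 8.68 and 8.73 (KO), with WT replicate 3 alone below the rest. Fasl, the death ligand of Fas, read 5.52 and 5.81 (WT) and 5.84 and 5.61 (KO), a difference of 0.06 (SE 0.15). Tnfsf15 (TL1A) read 5.08 and 5.24 (WT) and 5.33 and 5.28 (KO), a difference of 0.145 (SE 0.10).

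**Figure D3:**
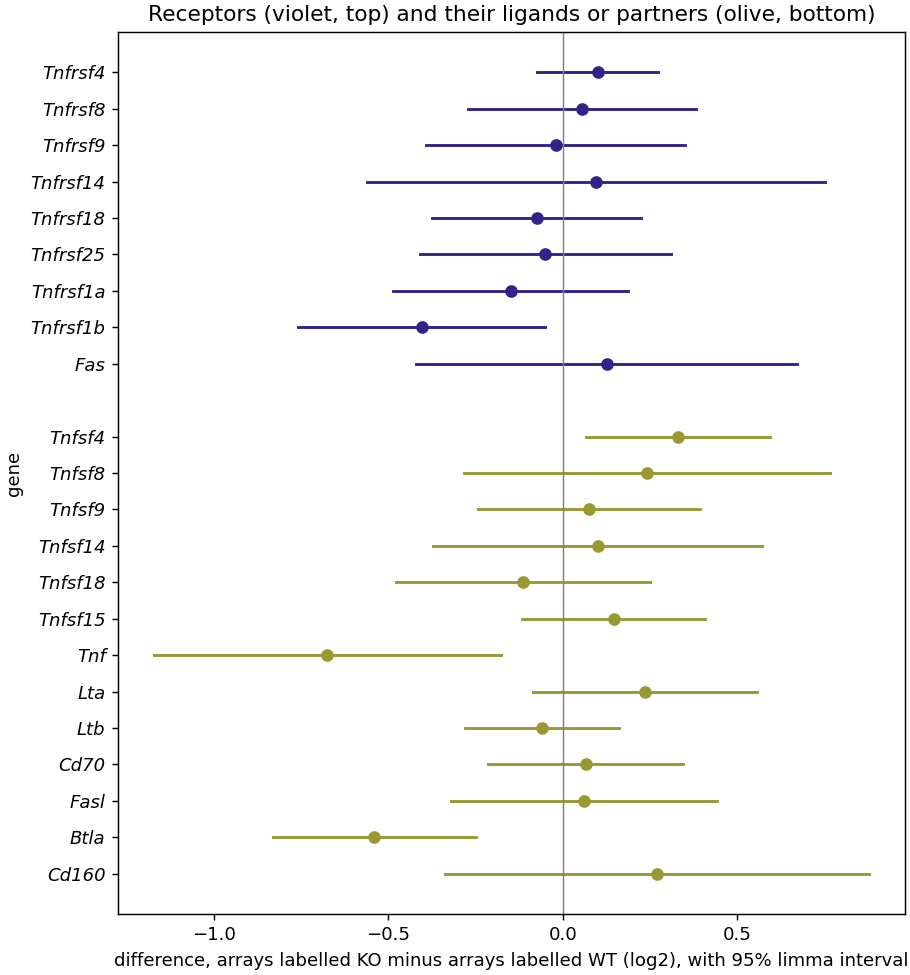
Difference between the arrays labelled KO and WT (horizontal axis, log2) with its 95% limma interval for the 9 receptors (violet, top) and the 13 ligands or partners (olive, bottom), 2 arrays a group. The interval of Tnfrsf1b (-0.76 to -0.05) is the only one among the receptors that does not include 0, before any adjustment for the number of genes.

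**Figure D4:**
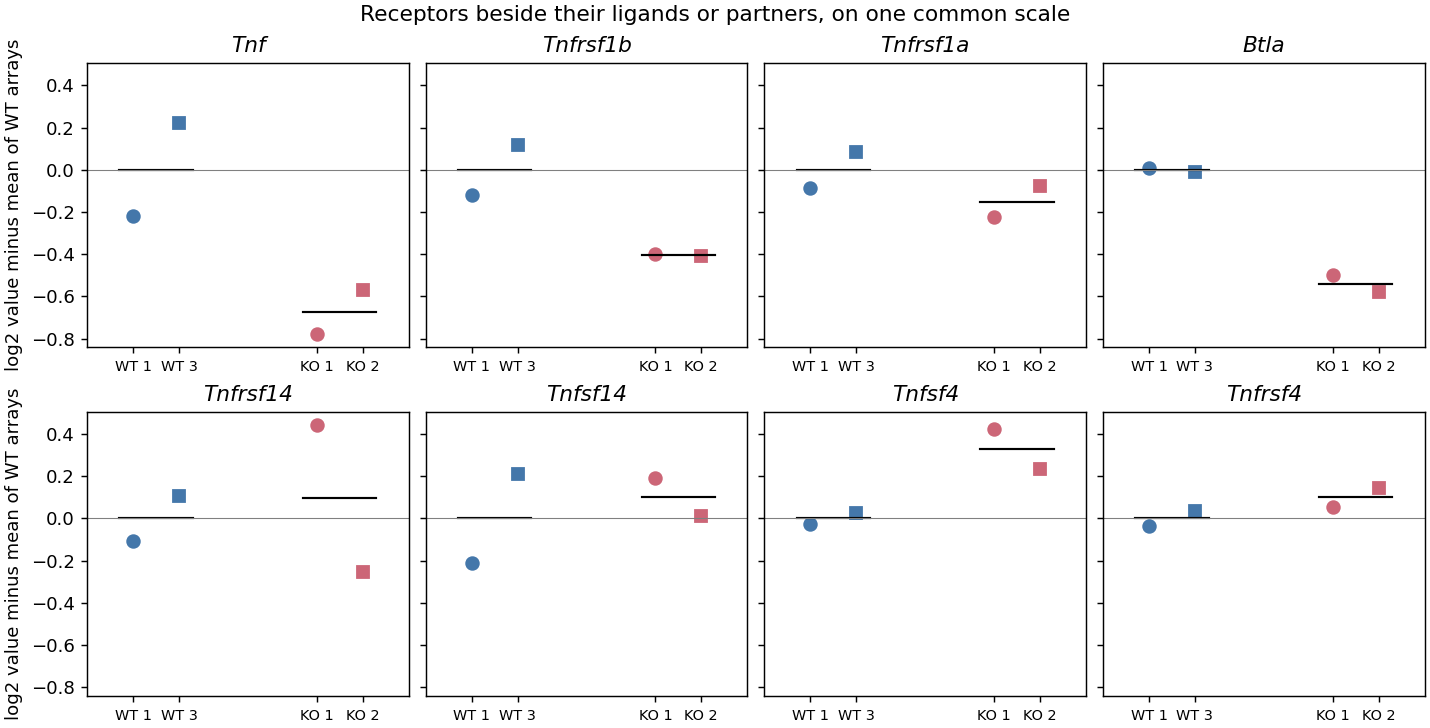
Log2 value minus the mean of the WT arrays (vertical axis, shared) for receptors beside their ligands or partners in each array, with WT in blue, KO in red and group means as black lines. The KO means lie at -0.68 for Tnf, -0.41 for Tnfrsf1b and -0.54 for Btla, and at -0.15 for Tnfrsf1a and 0.10 for Tnfrsf14.

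Of the other receptors of the superfamily, 0 of 18 passed the adjusted threshold in limma. In sign, 9 were higher and 9 lower, with a median difference of -0.01 beside 0.005 over all genes. At an unadjusted limma p under 0.05 stood 1 of the 18, fewer than the 10.1% of all genes. That gene was Tnfrsf26, a mouse decoy-type receptor, which read 11.31 and 11.14 (WT) and 10.73 and 10.88 (KO), a ratio of 0.747 with an interval of 0.590 to 0.947 (limma adjusted p 0.417). The next by p were Cd40 (0.245, SE 0.11), Relt (0.285, SE 0.13) and the plasma cell receptor gene Tnfrsf17 (0.17, SE 0.13). Of the 18, 8 lay below the median gene in every array. Tnfrsf17 was among them, and its groups overlapped. Cd40, best known from B cells and antigen-presenting cells, read 5.53 and 5.43 (WT) and 5.66 and 5.79 (KO), with both arrays labelled KO higher.

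Downstream of the receptors, the list of TRAF adaptors and death domain signalling genes had 21 of 23 genes on a cluster of their own. None passed the adjusted threshold and 0 had an unadjusted limma p under 0.05, against 10.1% of all genes. The arrays did not overlap for 8 of 21, beside 38.5% of all genes. Of the 21, 1 was higher and 7 lower, beside 21.0% and 17.5% of all genes. That split moved with the scaling, to 0 higher and 5 lower after median-centring and 5 higher and 8 lower after quantile normalization. No share over all genes was taken under those other scalings, so these later counts have no background to be read against. The median difference was -0.095, beside 0.005 over all genes. All 21 lay above the median gene in every array. Genes at or above that level had a median difference of 0.045. Of them, 45.2% did not overlap and 14.4% had an unadjusted limma p under 0.05. The cluster annotated to Cflar, the inhibitor of caspase-8 activation, read 10.52 and 10.27 (WT) and 10.16 and 9.76 (KO). Its difference was -0.435 (SE 0.19, limma adjusted p 0.530). The identifier of that cluster, TC0300001892.mm.1, points to chromosome 3. The place of Cflar was not checked against RefSeq, and whether the cluster reads Cflar was not examined. Tab1, an activator of the kinase TAK1, differed by -0.315 (SE 0.14), the caspase inhibitor gene Xiap by -0.28 (SE 0.16) and Traf1, itself a product of NF-kB signalling, by -0.225 (SE 0.13). For all 4, both arrays labelled KO were below both labelled WT under each of the 3 scalings. These genes were picked for the smallest p of the list in this same comparison, so that separation is no added evidence.

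The NF-kB list had 17 of 19 genes on a cluster of their own, again with none past the adjusted threshold and 0 at an unadjusted limma p under 0.05, against 10.1% of all genes. The arrays did not overlap for 7 of 17, near the 38.5% of all genes. Among genes at or above the median gene, where all 17 lay, that share was 45.2%. The median difference of the 17 was -0.035, beside 0.005 over all genes and 0.045 among genes at or above the median gene. After quantile normalization it was 0.01, beside 0.0275 over all genes. Rel, the subunit c-Rel that regulatory T cell development needs, read 13.09 and 12.90 (WT) and 12.81 and 12.68 (KO), a difference of -0.25 (SE 0.12). The inhibitor gene Nfkbie differed by 0.22 (SE 0.13), Nfkbiz by -0.24 (SE 0.16) and the deubiquitinase gene Cyld by -0.175 (SE 0.13), all with limma adjusted p from 0.643 to 0.724. Nfkbia, the feedback inhibitor that NF-kB induces, was chosen after its values were seen and read 13.27 and 13.23 (WT) and 13.22 and 13.21 (KO).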

How the data were processed

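The deposited values are log2 expression, in 1 table for the 4 arrays. RMA, a background, normalization and summary procedure for arrays, and Transcriptome Analysis Console were used by the authors, per the submitters' processing notes. The log2 base is taken from RMA and the range of values (1.82 to 19.38), and array medians were 4.65 to 4.72. Genome build and background handling: not given in the sources used here. Of the 65528 clusters, 30670 had 1 gene in the platform annotation, 1847 several and 33011 were not listed; symbols were updated through RefSeq (GRCm38.p6), and the brightest cluster of a gene was kept. No dim genes were removed. KO minus WT was tested with limma 3.58.1 in R 4.3.3 (two-sided, lmFit and trended eBayes), and p-values were adjusted by Benjamini-Hochberg over 30140 genes, after the procedure was tested on simulated data. Ratios are powers of 2 of log2 differences. Values of different clusters are not comparable as abundance. Precision is limited by the number of arrays. The receptors and gene lists were chosen with earlier results of these data known. Named were all receptors and ligands, Bmi1, the 4 genes of smallest p in each other list and the 5 genes most like the receptor of smallest p. The cell type markers given singly and Nfkbia fall outside this rule and were picked with their values known. The alternatives were other scalings, variance settings, a filter on dim genes, other handling of clusters and leaving out each array. Each of the 4 columns of values was used.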

Additional observations from a re-analysis of the deposited data

How the results depend on the processing

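Over the 11 alternatives, 0 of the 9 receptors passed the adjusted threshold in limma. Tnfrsf1b, Tnfrsf1a and Tnfrsf4 kept their direction in all of them. Tnfrsf1b lay between -0.415 and -0.38 under the other settings on 4 arrays, with an unadjusted limma p from 0.0181 to 0.0626, and between -0.525 and -0.285 without 1 array, with p from 0.0223 to 0.126 and adjusted p from 0.294 to 0.80 over all alternatives. The directions of the other 6 were not fixed. Tnfrsf9 turned to 0.005 after median-centring and to 0.0288 after quantile normalization. Without 1 array the differences ran from -0.11 to 0.07 for Tnfrsf9, -0.015 to 0.125 for Tnfrsf8, -0.255 to 0.445 for Tnfrsf14, -0.215 to 0.065 for Tnfrsf18, -0.14 to 0.04 for Tnfrsf25 and -0.085 to 0.335 for Fas, and their median from -0.11 to 0.07. Over all genes, 2 passed the adjusted limma threshold. That count was 1 after median-centring, 0 after quantile normalization, 0 without an intensity trend, 0 with robust settings, 13 among brighter genes alone, where fewer genes were tested, and 4 over all clusters. It was 0 without any 1 of the 4 arrays. For the others the cause was not tested. The brighter genes gave 14.4% at an unadjusted limma p under 0.05, so the receptors' 1 of 9 lies near that share too. No paired analysis was possible because the groups share only 1 replicate number. The Fas cluster added as an alternative was chosen after seeing the data. The table gives no detection call, so how far dim genes stand above background is unknown.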

Other observations

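The 9 receptor genes shared an order between the WT replicates. WT replicate 3 read higher than WT replicate 1 for 9 of 9, by a median of 0.18, against 46.4% of all genes and 54.7% of genes at or above the median gene. All 9 lay above the median gene in every array. After median-centring it was again 9 of 9, against 57.7% of all genes and 63.0% of genes at or above the median gene. After a further quantile normalization it was 9 of 9, against 55.0% and 59.7%. Between the KO arrays, no such order was shared. Replicate 2 was lower than replicate 1 for 6 of 9, against 45.6% of all genes and 53.1% of genes at or above the median gene. After quantile normalization it was lower for 5 of 9, against 50.3% and 51.6%. For scale, the median absolute difference of the 9 genes between the groups was 0.095, taken between means of 2 arrays and not between single arrays. This order was noticed in the data and was not tested.

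The array pattern of Tnfrsf1b was set against 20409 other named genes by the Euclidean distance between the 4 values centred on each gene's mean. The closest were Cdnf (0.02), Olfr1248 (0.04), Serpina3f (0.04), Mdc1 (0.05) and Cd81 (0.05), and 49 genes lay within 0.1. Cd81, a tetraspanin, read 12.13 and 12.39 (WT) and 11.91 and 11.89 (KO), while the odorant receptor gene Olfr1248 lay below the median gene in every array. With 4 arrays, likeness of this kind describes the arrays and says nothing of shared control.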
